A study of Mus musculus with 4 samples.

Results

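The cells described here were hepatic stellate cells with high Acta2 and Tagln, the genes of smooth muscle alpha-actin and transgelin. They numbered 217 of the 527 cells gated as stellate and of the 25861 cells that passed the quality limits. A unique molecular identifier (UMI) marks 1 captured mRNA molecule, and every level below is a number of UMIs or the usual CPM, UMIs scaled to a common total. A stellate cell had at least 3 UMIs of Reln, Colec11 and Lrat together and at least 10 of Ecm1 and Dcn together. It had at most 3 UMIs of the Kupffer cell gene Clec4f, and the endothelial genes Kdr, Ptprb, Stab2, Oit3, Ehd3 and Egfl7 made up under 0.2% of its UMIs. High cells had at least 8 UMIs of Acta2 and Tagln together, and the other 310 stellate cells, the low cells, had fewer. The cells were thus selected on the UMIs of these 14 genes, so their levels are given as a description with no test of high against low cells, and so are those of Tpm1, Timp1 and Lox, which the cells were named by together with Acta2 and Tagln.

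The livers came from wild-type male mice that were 8 to 10 weeks old. Both groups were injected intraperitoneally with 10 µl per g of body weight for 5 weeks at 2 doses a week, and the livers were taken 48 h after the last dose. The CCl4 mice received 1 part of carbon tetrachloride, a hepatocyte toxin, to 9 parts of corn oil, and the corn oil mice received the oil that both groups share. There were 2 mice per group and 1 library per mouse, and pronase and collagenase digestion, removal of hepatocytes by a slow spin and of dead cells by a density gradient set which cells could be recovered. Median depth was 4493 to 6861 UMIs per deposited cell. The tables shared 48 to 74 cell indices between any 2 libraries, and 0 among stellate cells. All mice have 1 batch by the labels, but by its header the table of CCl4 1 was made in a run of its own.

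Stellate cells lie between the sinusoidal endothelium and the hepatocytes, store vitamin A and secrete factors such as HGF in the healthy liver. On injury they can turn into myofibroblasts, which assemble actin stress fibres, contract and lay down collagen. The contractile genes are controlled by serum response factor (SRF), which binds the CArG box, and by TGF-beta and the YAP/TAZ partners of TEAD proteins.

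Among the cells gated as stellate, high cells were common in the CCl4 mice and scarce in the corn oil mice. They made up 4 of 41 stellate cells in corn oil 1 (9.76%, 95% Wilson interval 3.86 to 22.5) and 1 of 61 in corn oil 2 (1.64%, 0.290 to 8.72). In CCl4 1 they were 151 of 285 (53.0%, 47.2 to 58.7), and in CCl4 2 61 of 140 (43.6%, 35.6 to 51.8). The means were 5.70% ± 5.74 in corn oil and 48.3% ± 6.65 in CCl4 (SD, n = 2 mice each), a difference of 42.6 percentage points, and the groups did not overlap. An exact permutation test, two-sided, gave p = 0.333, and 2 mice a group allow no smaller value, and the intervals cover counting error only. Of cells that met the stellate and matrix limits, the endothelial limit left out 478 of 567 in corn oil 1 and 478 of 592 in corn oil 2. In CCl4 1 it left out 369 of 698 and in CCl4 2 78 of 229. Cells with 8 or more UMIs of Acta2 and Tagln that failed this limit alone were 8 and 5 in the corn oil mice and 124 and 7 in the CCl4 mice. What this did to the shares was not tested. High cells were deeper than low cells, with medians of 9969 against 7638.5 UMIs in CCl4 1 and 10592 against 7380 in CCl4 2. With a limit of 0.1% of UMIs in place of 8 UMIs, the share in corn oil 2 was 11.5% (7 of 61) and the others were 9.76%, 53.0% and 39.3%. With each cell thinned to 4000 UMIs and a limit of 4 UMIs of Acta2 and Tagln, the shares were 13.0%, 7.14%, 55.0% and 40.2%, and both CCl4 mice again lay above both corn oil mice.

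**Figure D1:**
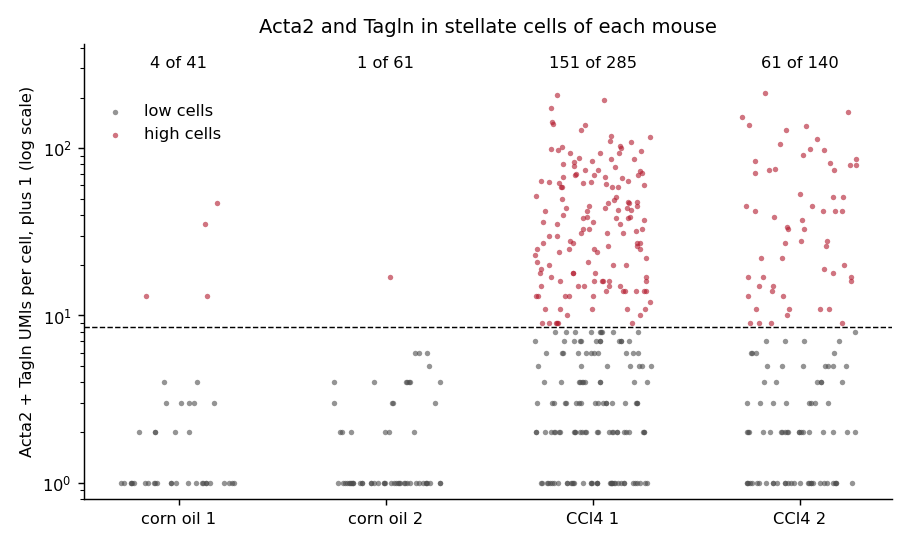
UMIs of Acta2 and Tagln together, plus 1 and on a log scale, in each of the 527 stellate cells of the 4 mice. The dashed line marks the limit of 8 UMIs that chose the high cells (red), and the numbers above give high cells of all stellate cells, 4 of 41, 1 of 61, 151 of 285 and 61 of 140.

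The limit cut a continuous range. The highest cells reached 207 UMIs of Acta2 and Tagln in CCl4 1 and 213 in CCl4 2, with medians of 35 and 36 over the high cells. All high cells had Tagln, but 20 in CCl4 1 and 10 in CCl4 2 had no Acta2 UMI, and Tagln exceeded Acta2 in 127 of 151 and 54 of 61. Just outside the limit, with 4 to 7 UMIs, the 39 cells of CCl4 1 had a Tagln level of 585 CPM and the 16 of CCl4 2 had 455 CPM. Just inside, with 8 to 12 UMIs, the 19 cells of CCl4 1 had 967 CPM of Tagln and the 11 of CCl4 2 had 1011 CPM. The stellate genes were part of the rule, so their levels do not check the label. The high cells of the CCl4 mice had Reln at 1337 and 737 CPM, Lrat at 915 and 1111 CPM and Dcn at 8162 and 5562 CPM. In corn oil 1 the 4 high cells had 0 UMIs of Reln and 5 of Lrat, all 5 in 1 cell, while Colec11 was at 1551 CPM. The endothelial sum was mostly Ehd3 in the 39 cells of CCl4 1 just outside the limit, with 255 UMIs against 2 to 4 for each other gene of that sum. Ehd3 was at 587 CPM in CCl4 1 cells with 0 UMIs of Acta2 and Tagln and at 143 CPM in those with 64 or more. In CCl4 2 it was at 335 and 192 CPM, with 682 CPM at 32 to 63 UMIs.

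The other genes that the cells were named by followed in most but not all mice. Tpm1, a tropomyosin that stabilises actin filaments, was at 1086 and 1199.7 CPM in the high cells of the corn oil mice against 143 and 129 CPM in their low cells. Tpm1 in the CCl4 mice was at 1754 and 1747 CPM against 644 and 645 CPM. Timp1, an inhibitor of matrix metalloproteinases, was at 495 and 322 CPM against 211 and 103 CPM in the CCl4 mice. The 5 corn oil high cells held 1 UMI of Timp1 in total, in 1 cell of corn oil 1. Lox, which cross-links collagen, was at 253 and 279 CPM against 153 and 72.3 CPM in the CCl4 mice, at 582 against 10.2 CPM in corn oil 1, and had 0 UMIs in the 1 high cell of corn oil 2.

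UMIs were summed per mouse and state, and high was compared with low within mice by the quasi-likelihood test of edgeR, with Benjamini-Hochberg adjustment over all genes tested and a call at an adjusted p under 0.05. Over all 4 mice 302 of 6277 genes were called (4.81%), 73 higher (1.16%) and 229 lower (3.65%) in high cells. The corn oil side of this fit rests on 5 cells, with 25788 UMIs in corn oil 1 and 5835 in corn oil 2, and 165 of the 229 lower genes had 0 UMIs in them. In the CCl4 mice alone, a comparison chosen after seeing the data, 958 of 8633 genes were called (11.1%), 413 higher (4.78%) and 545 lower (6.31%). Of the 302 genes, 290 were also called there in the same direction. Without CCl4 1 20 genes and without CCl4 2 26 genes were called, with the mice left out in turn. Because the cells were sorted on a pair of genes, the calls describe which other genes moved with that pair.

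Genes of the contractile apparatus formed the clearest group. Of 30 tested members 26 rose in high cells of the CCl4 mice alone and none fell, with a median log2 difference of 0.98, beside 0.0029 over all 8633 genes. Of all those genes 4.78% rose and 6.31% fell. With all 4 mice 5 of 30 rose, Lmod1, Myl9, Tpm2, Myh11 and Myh10, with a median of 0.60 beside -0.09 over all genes, of which 1.16% rose. The 4 members not called in the CCl4 mice were Des, Csrp2, Tpm3 and Pxn, with log2 differences of 0.59, 0.17, 0.10 and -0.41. In cells of middle depth, between the 25th and 75th percentile of their library, 23 of 30 rose, where 194 of 6374 genes were called (3.04%), 1.49% higher and 1.55% lower. Without cells that held RNA of other types (below) 18 of 30 rose, where 1.37% of all genes tested were higher.

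Myl9, the regulatory light chain of smooth muscle myosin, was at 194 and 686 CPM in high cells of the corn oil mice and 310.3 and 327 CPM in those of the CCl4 mice. Its low cells held 40.8, 54.8, 41.2 and 40.0 CPM, so every high sum lay above every low sum. In the high cells 1 UMI is 38.8 CPM in corn oil 1 and 171 CPM in corn oil 2, so the corn oil high levels of Myl9, Tpm2 and Lmod1 rest on few UMIs. Myl9 rose by a log2 difference of 2.79 (SE 0.35, adjusted p = 2.8e-12 by edgeR over 4 mice). Tpm2, another tropomyosin, had high levels of 349, 857, 338 and 325 CPM and low levels of 35.7, 25.8, 67.6 and 52.3 CPM, a log2 difference of 2.64 (SE 0.35, adjusted p = 8.81e-11). Lmod1, a leiomodin that nucleates actin in smooth muscle, was at 77.6, 343, 56.2 and 80.9 CPM in high cells. In low cells Lmod1 had 0 UMIs in both corn oil mice and 7.90 and 9.23 CPM in the CCl4 mice, and its fitted log2 difference was 3.24 (SE 0.44, adjusted p = 1.38e-10). Outside the list Nexn, the actin-binding nexilin, rose by 1.52 (SE 0.39, adjusted p = 0.00446), and was higher in high cells of all 4 mice. Actn1, which ties actin to adhesions, showed how the small corn oil sums weigh: it was at 116 and 0 CPM in the corn oil high cells against 229 and 261 CPM in the low cells. Actn1 in the CCl4 mice was at 1280.0 and 1093 CPM against 391 and 355 CPM, a log2 difference of 1.73 (SE 0.15, adjusted p = 1.72e-28 in the CCl4 mice alone), and it was not called over 4 mice (log2 0.62, adjusted p = 0.824). Des, the intermediate filament desmin, was at 104 and 108 CPM in CCl4 high cells against 72.0 and 75.4 CPM and was not called in either comparison.

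**Figure D2:**
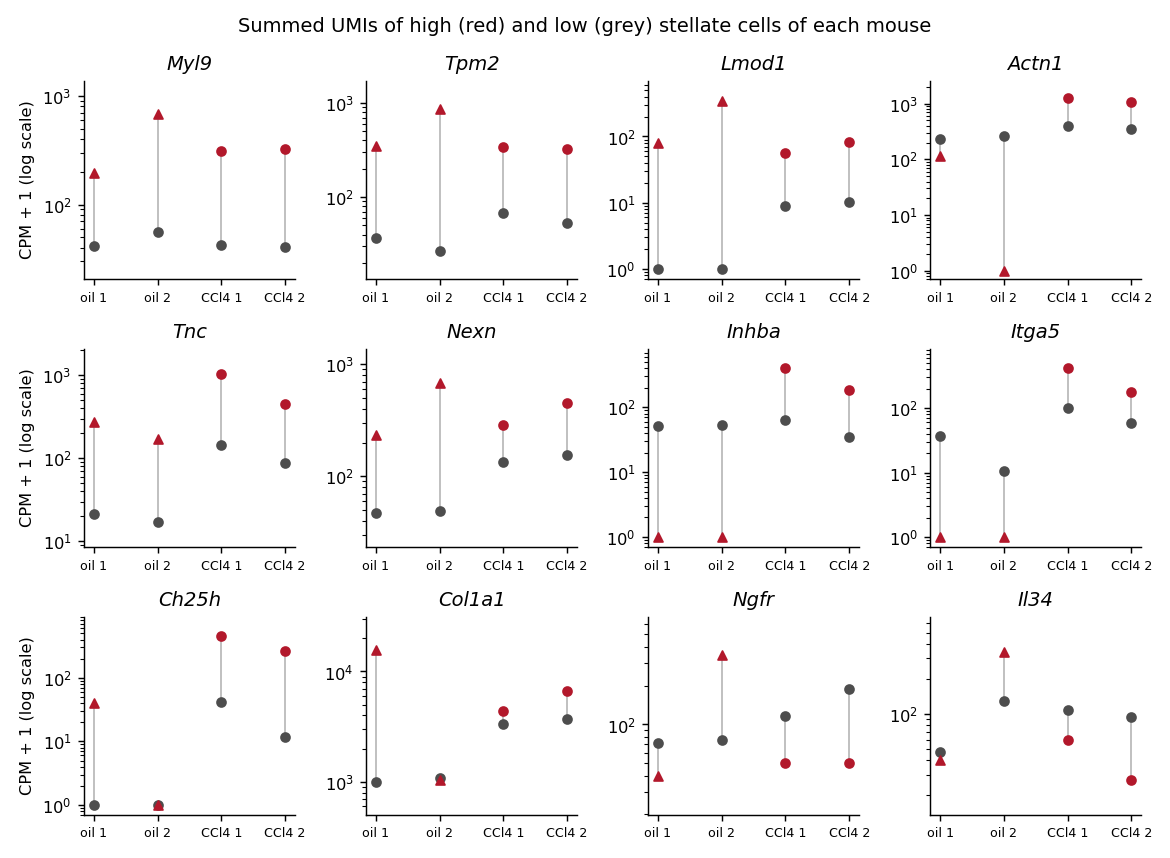
Levels of 12 genes, as CPM plus 1 on log scales, in the summed high cells (red, triangles for corn oil and circles for CCl4) and low cells (grey) of each mouse, joined by a line per mouse. Myl9, Tpm2, Lmod1 and Tnc were higher in high cells of all 4 mice (Tnc in corn oil 2 from 1 UMI), Inhba and Itga5 in the 2 CCl4 mice, and Ngfr and Il34 were lower in 3 of 4 mice.

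Markers of smooth muscle and mural cells moved in part with this group. Lmod1 and Myh11 stand in both lists. Of 11 such markers in the tables, Cnn1 and Pln had 0 UMIs in all high and low cells, and 9 of 11 were detected in high cells of each CCl4 mouse. Their summed level was 932 and 905 CPM in high and 739 and 665 CPM in low cells of the CCl4 mice. Most of that sum was 1 gene, Mustn1, with 796 of 1441 UMIs in high and 609 of 842 in low cells of CCl4 1. In CCl4 2 Mustn1 had 360 of 626 UMIs in high and 267 of 432 in low cells. In the corn oil mice the summed level was 2365 and 5141 CPM in high and 336 and 322 CPM in low cells. Myh11, the smooth muscle myosin heavy chain, was at 310.2 and 1028 CPM in the 5 corn oil high cells and at 93.7 and 52.0 CPM in the CCl4 high cells, against 12.9 to 24.6 CPM in low cells. Notch3, a receptor of mural cells, was at 931 and 3599 CPM in corn oil high cells but at 63.4 and 105 CPM in CCl4 high cells, against 79.9 and 105 CPM in CCl4 low cells. The part of mural cells in the corn oil values was not tested.

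The genes that rose included members with a CArG box just upstream. The motif was searched on both strands of the 250 bases before each RefSeq start (GRCm38.p6), and 439 of 27025 genes with a promoter entry held it (1.62%). It was in 14 of 309 matched genes that rose in the CCl4 mice alone (4.53%) and in 6 of 411 that fell (1.46%). Over all 4 mice it was in 1 of 52 matched genes that rose (1.92%), near the share of all genes. Among those that rose also without cells holding RNA of other types it was in 8 of 77 (10.4%), and in the contractile list with Acta2 and Tagln in 5 of 31 matched members (16.1%), where Tagln had no match and was not searched. The 8 promoters are shown because they carry that count, each 5′ to 3′ on the gene's strand with the box in capitals. A match is a description of letters, not of binding, and Acta2 had no strict match in its window.
Myl9: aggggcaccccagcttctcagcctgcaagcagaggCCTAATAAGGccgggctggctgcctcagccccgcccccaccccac
Myl6: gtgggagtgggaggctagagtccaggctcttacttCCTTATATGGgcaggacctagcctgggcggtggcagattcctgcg
Cnn2: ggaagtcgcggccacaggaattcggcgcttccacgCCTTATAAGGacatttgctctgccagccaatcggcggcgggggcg
Vcl: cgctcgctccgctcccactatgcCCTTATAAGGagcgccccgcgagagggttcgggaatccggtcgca
Actg1: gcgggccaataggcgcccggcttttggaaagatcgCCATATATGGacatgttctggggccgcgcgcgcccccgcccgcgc
Filip1l: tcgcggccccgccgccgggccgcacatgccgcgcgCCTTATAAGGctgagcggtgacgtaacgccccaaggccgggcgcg
Glipr2: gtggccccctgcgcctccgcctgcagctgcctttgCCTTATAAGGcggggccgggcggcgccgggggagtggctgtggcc
Srf: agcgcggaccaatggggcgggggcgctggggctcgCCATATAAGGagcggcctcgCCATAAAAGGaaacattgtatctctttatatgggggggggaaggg

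These windows lie at chr2:156775268-156775347 (plus strand) for Myl9, chr10:128493015-128493094 (minus) for Myl6 and chr10:79988509-79988588 (plus) for Cnn2. They lie at chr14:20929148-20929215 (plus) for Vcl, chr11:120348541-120348620 (minus) for Actg1 and chr16:57549145-57549224 (plus) for Filip1l. Glipr2's is at chr4:43957583-43957662 (plus) and Srf's at chr17:46556180-46556279 (minus). The box began 161 bases before the start in Myl9, 50 in Myl6 and 56 in Cnn2, and Srf held a pair, 82 and 62 bases before its start. Srf, the gene of the factor that binds this box, was itself at 94.4 and 72.3 CPM in CCl4 high cells against 43.9 and 19.997 CPM (log2 1.40, SE 0.26, adjusted p = 3.05e-06 by edgeR in the CCl4 mice alone). Vcl, the adhesion protein vinculin, was at 755 and 454 CPM against 303 and 235 CPM there, and Cnn2, a calponin, at 688 and 662 CPM against 302 and 341 CPM. A second motif, GGAATG, the core bound by TEAD proteins, was counted per gene, in any of its promoters. It was in 14.4% of all genes with a promoter entry. Of matched genes, 20.1% of those that rose in the CCl4 mice, 14.8% of those that fell and 38.7% of the contractile list held it.

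Some targets of TGF-beta and YAP rose in high cells. In the CCl4 mice alone 11 of 24 tested targets rose and 1 fell, Tgfbi, with a median log2 difference of 0.49, and without cells holding other RNA 7 of 24 rose. Of all genes tested 4.78% and 1.37% rose in these fits. Over 4 mice 4 of 21 rose, among them Inhba, Fstl3 and Tgfb1i1, where 1.16% of all genes tested rose. Inhba, the activin A subunit, was at 398 and 184 CPM in CCl4 high cells against 62.3 and 33.8 CPM in low cells. It had 0 UMIs in the 5 corn oil high cells, and its log2 difference over 4 mice was 2.19 (SE 0.35, adjusted p = 1.99e-07). Fstl3, which binds and blocks activin, rose in the same cells, by 1.93 (SE 0.35, adjusted p = 1e-05). Ctgf, the matricellular YAP target, was at 1706, 2571, 2805 and 1429 CPM in high cells against 469, 683, 620.5 and 368 CPM in low cells. Its high sums lay above all low sums, and it was called in the CCl4 mice (log2 2.13, SE 0.14, adjusted p = 1.03e-45) but fell short over 4 mice (log2 1.60, adjusted p = 0.0536). Ankrd1, a YAP target that was chosen for naming after its values were seen, was at 334 and 119.9 CPM in CCl4 high cells against 12.3 and 0 CPM in low cells.

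Matrix genes were split. In the CCl4 mice alone 14 of 32 tested genes of fibrillar collagen and interstitial matrix rose and 6 fell (median log2 0.42), but at middle depths 4 of 30 rose and 2 fell, and without cells holding other RNA again 4 rose and 2 fell, with a median of 0.05. Of all genes tested 4.78%, 1.49% and 1.37% rose and 6.31%, 1.55% and 0.843% fell in these fits. Tenascin C (Tnc), a matrix protein of wounds, was the member that moved most. It was at 271, 171, 1043 and 451 CPM in high cells and at 20.4, 16.1, 144 and 86.1 CPM in low cells, a log2 difference of 2.71 (SE 0.52, adjusted p = 5.01e-05). Every high sum of Tnc lay above every low sum, but the 171 CPM of corn oil 2 is 1 UMI in its 1 high cell. The collagen I gene Col1a1, the bulk product of scar, was at 4385 and 6654 CPM in CCl4 high cells against 3352 and 3681 CPM in low cells. It was called in the CCl4 mice alone (log2 0.68, SE 0.13, adjusted p = 3e-06), and was not called over 4 mice (0.90, adjusted p = 0.617), at middle depths (0.11, adjusted p = 0.898) or without cells holding other RNA (0.40, adjusted p = 0.45). In corn oil 1 the high cells had 15705 CPM of Col1a1, of which 301 of 405 UMIs were in 1 cell. Low cells with 0 UMIs of Acta2 and Tagln had Col1a1 at 5184 CPM in CCl4 1 and 5017 CPM in CCl4 2, beside 5578 and 6570.1 CPM in the cells with 64 or more, and lower levels between them in most bands. Other matrix genes that rose were Vcan, the proteoglycan versican (log2 1.40, SE 0.34, adjusted p = 0.00199), and Col15a1 of the basement membrane zone (1.61, SE 0.41, adjusted p = 0.00417). Of the enzymes of cross-linking and turnover 10 of 28 rose and 1 fell, Mmp13, in the CCl4 mice alone, and 1 of 26, Adamts12, rose without cells holding other RNA, where 1.37% of all genes tested were higher. Eln, elastin, fell in the CCl4 mice, at 73.1 and 70.8 CPM against 108 and 134 CPM (log2 -0.65, SE 0.21, adjusted p = 0.0194), and was not called over 4 mice.

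**Figure D3:**
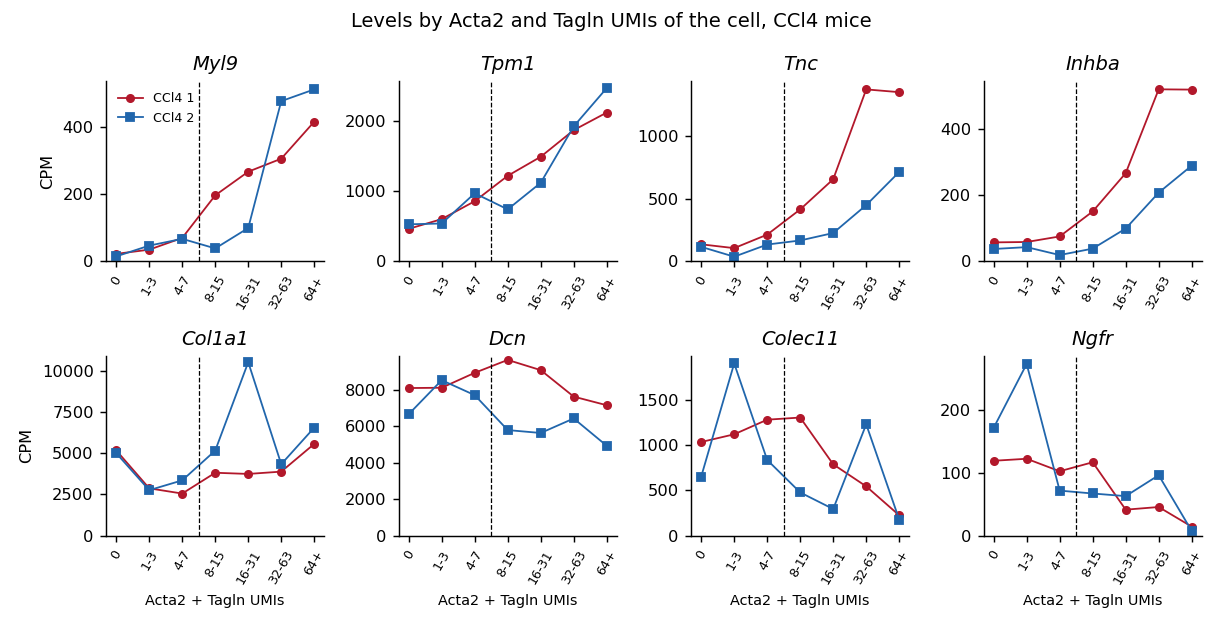
CPM of 8 genes over summed cells of CCl4 1 (circles) and CCl4 2 (squares), by the UMIs of Acta2 and Tagln in the cell, with the dashed line at the limit of 8. Myl9, Tpm1, Tnc and Inhba were highest in the bands from 32 UMIs up, Col1a1 had no single direction, and Ngfr was lowest in the band of 64 or more.

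The levels also differed between bands of Acta2 and Tagln on either side of the limit, with steps of different sizes at the limit itself. Myl9 went from 21.1 CPM in the 38 cells of CCl4 1 with 0 UMIs to 68.5 CPM at 4 to 7 UMIs, 195 CPM at 8 to 15 and 414 CPM at 64 or more. In CCl4 2 it went from 13.6 CPM to 65.9 and 511 CPM, with 37.4 CPM in the 15 cells with 8 to 15 UMIs. Inhba went from 56.3 to 74.2 and 519 CPM in CCl4 1, and from 36.3 to 18.0 and 289 CPM in CCl4 2. Ch25h, which makes 25-hydroxycholesterol, was added here after its values were seen. Across the limit it went from 34.3 to 199 CPM in CCl4 1. In CCl4 2 it went from 11.98 to 142 CPM, which were 2 and 19 UMIs of Ch25h. The bands of 0 and 1 to 3 UMIs had 105.5 and 7.92 CPM of Ch25h in CCl4 1 and 18.1 and 3.81 CPM in CCl4 2. Median depth also rose over these bands, from 7221 to 10800 UMIs in CCl4 1 and from 5897 to 12183.5 UMIs in CCl4 2.

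Regulators of contractile genes moved one way where called, and adhesion genes both ways. Of 25 regulators of contractile genes 10 rose and none fell in the CCl4 mice alone, and 2, Srf and Prrx1, also without cells holding other RNA. Of all genes tested 4.78% rose and 6.31% fell in the CCl4 mice alone, and 1.37% rose without cells holding other RNA. Prrx1, a mesenchymal homeobox factor, was at 119.6 and 207 CPM against 62.3 and 78.5 CPM in the CCl4 mice. Of 17 integrins and adhesion genes 4 rose and 5 fell there. Itga5, the alpha chain of the fibronectin receptor, was at 416 and 178 CPM in CCl4 high cells against 100.05 and 58.5 CPM, with 0 UMIs in the 5 corn oil high cells (log2 1.73 over 4 mice, SE 0.35, adjusted p = 0.000138). Itga8, an integrin chain of stellate and smooth muscle cells, fell, at 58.2 and 92.5 CPM against 119 and 191 CPM in the CCl4 mice (log2 -1.18 over 4 mice, SE 0.35, adjusted p = 0.0218). Cdh11, a mesenchymal cadherin, also fell (-1.65, SE 0.39, adjusted p = 0.00123), but unevenly. At 0, 1 to 3 and 4 to 7 UMIs of Acta2 and Tagln it was at 42.2, 149 and 14.3 CPM in CCl4 1 and 18.1, 26.7 and 89.8 CPM in CCl4 2. From 8 UMIs up its bands held 10.4 to 26.0 CPM in CCl4 1 and 0 to 70.1 CPM in CCl4 2.

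Ch25h had the highest fitted log2 difference among called genes of the inflammatory list. It was at 458 and 267 CPM in CCl4 high cells, 40.4 and 10.8 CPM in CCl4 low cells, 38.8 and 0 CPM in corn oil high cells and 0 in corn oil low cells (3.89, SE 0.41, adjusted p = 5.2e-18). Of 22 tested inflammatory genes 5 rose and 5 fell in the CCl4 mice alone, where 4.78% of all genes tested rose and 6.31% fell. None of 16 glycolysis genes was called by edgeR there, and 2 had an unadjusted p under 0.05. Of the cell cycle list 1 of 13 rose, Ccnd2, and 4 fell, Hmgb2, Stmn1, Ube2c and Mki67. High cells had 0 UMIs of Mki67, a proliferation gene, in 151 and 61 cells of the CCl4 mice, which allows up to 1.99% and 4.92% of cells with a UMI, against 14 and 26 UMIs in 1 of 134 and 3 of 79 low cells. In CCl4 2 23 of the 26 UMIs were in 1 cell, so the call for Mki67 rests largely on 1 low cell of each mouse.

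Some genes of quiescent stellate cells were lower in high cells. Of 34 tested members 15 fell and 1 rose, Pdgfrb, in the CCl4 mice alone, with a median log2 difference of -0.39, and without cells holding other RNA 6 of 33 fell, with a median of -0.62. Of all genes tested 6.31% and 0.843% fell and 4.78% and 1.37% rose in these fits. Over 4 mice 3 of 33 fell, namely Angptl6, Rassf4 and Ngfr, where 3.65% of all genes tested fell. The summed level of the list was 11531 and 9188 CPM in high against 14348 and 15364 CPM in low cells of the CCl4 mice, but 11323 and 34447 against 11496 and 21313 CPM in the corn oil mice. Ngfr, the low-affinity neurotrophin receptor and a marker of portal-side stellate cells, was at 49.1 and 49.1 CPM in CCl4 high cells against 116 and 188 CPM in low cells. In the corn oil mice Ngfr was at 38.8 CPM (1 UMI) and 343 CPM (2 UMIs) in high cells against 71.3 and 74.1 CPM. Its log2 difference was -1.43 (SE 0.34, adjusted p = 0.00189), and stayed at -1.45 (adjusted p = 0.00539) in the CCl4 mice without cells holding other RNA. Of 6 portal-side genes 5 fell in the CCl4 mice, Ngfr, Il34, Dach1, Igfbp3 and Itgb3. Without cells holding other RNA 3 of 6 fell, Ngfr, Il34 and Igfbp3. At middle depths 1 of 5 fell, Ngfr, where 1.55% of all genes tested fell. The summed level of the portal-side list was 502 and 348 CPM in high against 899 and 806 CPM in low cells of the CCl4 mice, and in the corn oil mice 4304 and 1885 against 392 and 815 CPM, with Igfbp3 at 4227 and 1199.7 CPM in those high cells. Of 6 central-side genes 2 rose, Spon2 and Loxl1, and 1 fell, Pth1r, in the CCl4 mice alone, where 4.78% of all genes tested rose. Without cells holding other RNA none rose and Pth1r fell. Il34, a ligand of the CSF1 receptor, was at 58.8 and 26.0 CPM against 108 and 93.8 CPM in the CCl4 mice (log2 -1.12 over 4 mice, SE 0.35, adjusted p = 0.0273). Sod3, the extracellular superoxide dismutase, fell in the CCl4 mice, from 3276 and 2961 CPM to 1998 and 1319 CPM (log2 -0.88, SE 0.13, adjusted p = 2.55e-09), but was at 4149 and 16967 CPM in corn oil high cells. Hgf and Cygb, named by the rule, were not called in any of the 3 comparisons: Hgf had log2 differences of -0.99 over 4 mice, -0.06 in the CCl4 mice and -0.35 without cells holding other RNA, and Cygb 0.02, -0.06 and -0.32.

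**Figure D4:**
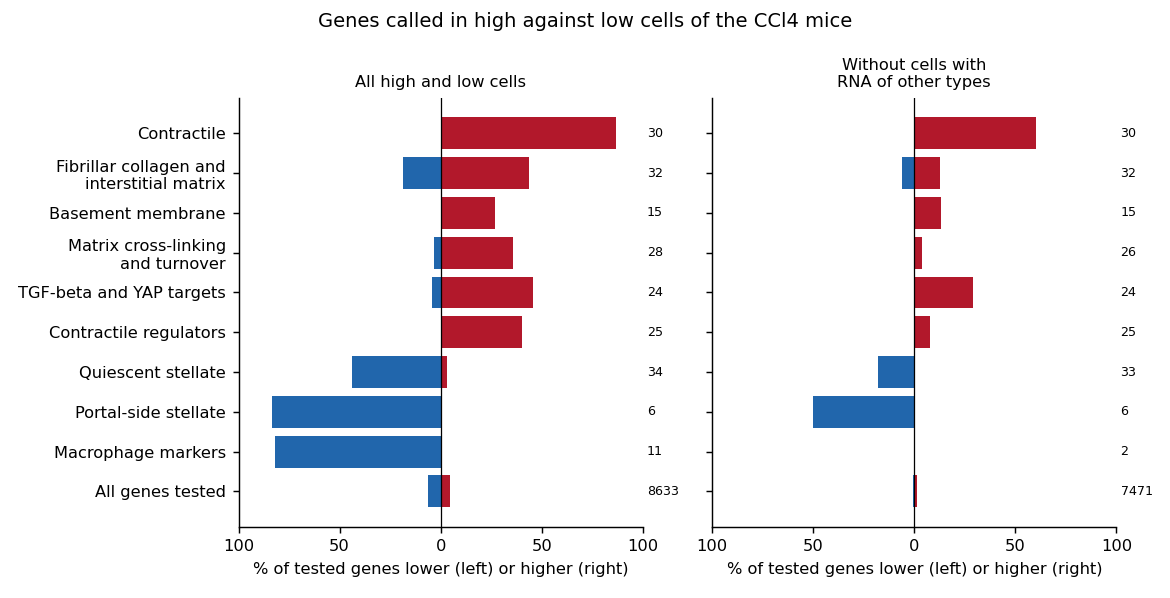
Percent of tested genes of each list that were called higher (red, right) or lower (blue, left) in high cells of the CCl4 mice, with the number tested at the right of each bar. The left panel uses all cells, with 26 of 30 contractile genes higher, and the right panel leaves out cells in which markers of macrophages, lymphocytes, neutrophils and mesothelium reached 0.1% of UMIs, with 18 of 30 higher, and its bars for those markers follow from that choice.

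Most of the lowest genes were immune genes. The 10 lowest by the naming rule were Slpi, Lyz2, H2-Ab1, Ctss, H2-Aa, H2-Eb1, Cd74, Cadm1, Clec4a3 and C1qb. Lyz2, lysozyme of myeloid cells, had 0 UMIs in the 5 corn oil high cells and 562 and 636 CPM in CCl4 high cells, against 3552, 4080.2, 1065 and 2786 CPM in low cells. The fit gave -3.21 (SE 0.64, adjusted p = 0.000119 over 4 mice), a size that depends on the counts added to those zeros, and -1.46 in the CCl4 mice alone. Macrophage markers moved with it: 9 of 9 tested fell over 4 mice, where 3.65% of all genes tested fell. The summed level of the macrophage markers was 38.8, 0, 1416 and 1163 CPM in high cells and 8128, 7799.5, 3188 and 4196 CPM in low cells. All 13 were detected in low cells of every mouse but corn oil 1, where Timd4 was at 0. Mesothelial markers had 3 and 5 UMIs in the high cells of the CCl4 mice and 202 and 77 UMIs in the low cells. Cells in which macrophage, lymphocyte, neutrophil and mesothelial markers reached 0.1% of UMIs were 0 of 4, 0 of 1, 20 of 151 (13.2%) and 8 of 61 (13.1%) among high cells. Among low cells they were 20 of 37 (54.1%), 13 of 60 (21.7%), 33 of 134 (24.6%) and 28 of 79 (35.4%).

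Without those cells, a choice made after seeing the data, 165 of 7471 genes were called in the CCl4 mice (2.21%), 102 higher (1.37%) and 63 lower (0.843%). Over 4 mice 48 of 4562 genes were then called (1.05%), 22 higher (0.482%) and 26 lower (0.57%). Of the 413 genes that rose with all cells 100 were called again, and of the 545 that fell 61. The macrophage markers, Lyz2 and C1qb among them, are part of what removed these cells, so their values there are not a result. Genes that still fell included Ngfr, Il34, Cdh11, Itga8, Cd34 and Mgp, the matrix Gla protein that inhibits calcification. With all cells kept, Cd34, a marker of fibroblasts and endothelium, was at 21.3 and 36.1 CPM in CCl4 high cells against 90.4 and 90.8 CPM in low cells. Its log2 difference over 4 mice, also with all cells, was -1.63 (SE 0.36, adjusted p = 0.000479 by edgeR). In corn oil 1 Cd34 had 3 UMIs in the 4 high cells and 20 in the 37 low cells. In corn oil 2 it had 0 UMIs in the 1 high cell and 31 in the 60 low cells. Of 8 fibroblast markers tested 5 fell and 1, Thy1, rose in the CCl4 mice with all cells. Of all genes tested 6.31% fell and 4.78% rose there. The summed level of the 12 fibroblast markers was 549 and 1237 CPM in high against 1152 and 1466 CPM in low cells of the CCl4 mice. In corn oil 1 it was 4925 against 989 CPM, and in corn oil 2 514 against 1044 CPM. The 4925 CPM came from 127 UMIs in 4 cells, and the part of fibroblasts in it was not tested. Thy1 was at 40.1 and 44.8 CPM in CCl4 high cells and 7.02 and 7.69 CPM in CCl4 low cells, but had 0 UMIs in corn oil high cells and 66.2 and 64.5 CPM in corn oil low cells.

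**Figure D5:**
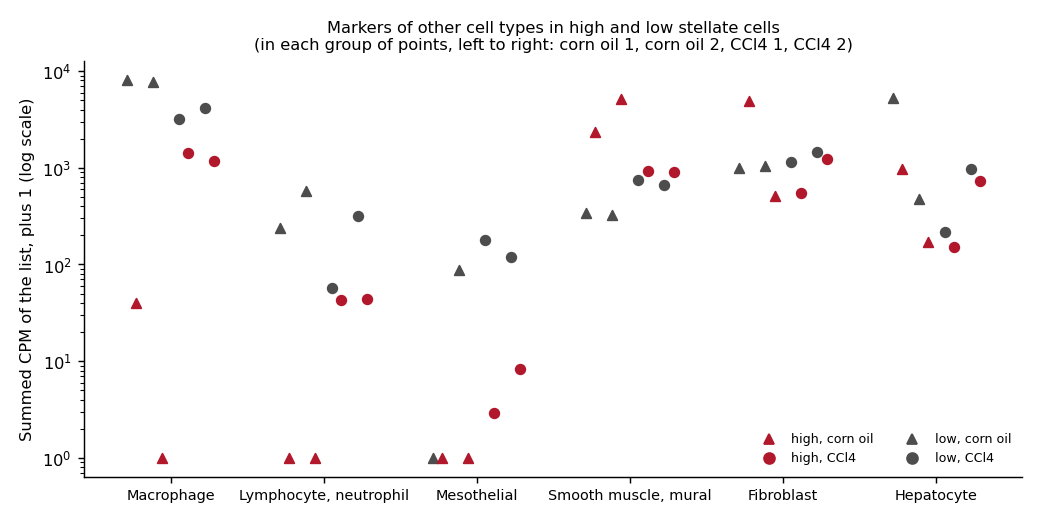
Summed CPM, plus 1 and on a log scale, of marker lists of other cell types in high (red) and low (grey) stellate cells of corn oil (triangles) and CCl4 mice (circles). Macrophage markers were lower in high cells of all 4 mice, and smooth muscle and mural markers were highest in the 5 corn oil high cells, at 2365 and 5141 CPM.

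CCl4 against corn oil was not fitted within high cells, since the corn oil mice held 4 and 1 of them and a minimum of 20 per mouse was set. In low cells 24 of 6921 genes were called between the treatments (0.347%), 14 higher (0.202%) and 10 lower (0.144%) in CCl4. They included both Tpm1, at 644 and 645 CPM in CCl4 low cells against 143 and 129 CPM in corn oil low cells (log2 2.19, adjusted p = 0.0331), and Timp1, at 211 and 103 CPM against 0 and 6.45 CPM. Thbs1, thrombospondin 1 that activates TGF-beta, was at 666 and 835 CPM against 20.4 and 41.9 CPM (log2 4.44, adjusted p = 0.0111), and was higher again in CCl4 high cells, at 2694 and 1811 CPM. None of the 24 calls held without CCl4 2, where edgeR called 0 genes and 388 had an unadjusted p under 0.05. The difference between high and low itself differed between treatments for 76 of 6277 genes (1.21%), 38 in each direction, with the corn oil side again resting on 5 cells.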

How the data were processed

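Single cells of 4 mouse livers were captured with BD Rhapsody, and the authors deposited UMI counts per cell and gene, not normalized, which the labels name as the RSEC output of the capture system's pipeline. Per the file headers the counts come from version 1.9.1 of the BD WTA Rhapsody Analysis Pipeline with GRCm38 and GENCODE vM19. The aligner's settings are not given in the sources used here. Of 27091 cells, the 25861 that had 200 or more genes and no more than 25% mitochondrial UMIs were kept, with library totals of 45408857 to 55529871 UMIs. Depth limits the corn oil high cells most, with 25788 and 5835 UMIs in all.

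The members and the gene lists were chosen with earlier results of these data known. UMIs were summed per mouse and state. High and low cells were compared with edgeR 4.0.16 (limma 3.58.1, R 4.3.3), with TMM scaling, a filter on low counts and the mouse as a block. The difference between treatments of the high to low difference was an interaction term of the same kind of fit, and CCl4 and corn oil were compared in low cells without a block. The SE is the absolute log2 difference over the square root of the F statistic. Named genes were the 10 highest and 10 lowest called genes that moved the same way in 4 mice and reached 20 CPM, 3 and 3 genes of the interaction, up to 4 per list and a set of gate, label and stellate genes. Ankrd1, Thbs1, Actn1, Ctgf, Sod3, Igfbp3, Mustn1, Srf, Vcl, Cnn2 and the other genes with printed promoters were added after their values were seen. DESeq2 1.42.0 was an alternative. Scrublet (scanpy 1.11.5) scored doublets, which were kept, and were removed at the highest 5% of scores as an alternative. Python 3.11.15, numpy 2.4.6, scipy 1.17.1, pandas 2.3.3 and matplotlib 3.10.9 were used. On simulated counts with 200 changed genes the fit recovered 95.5% of 4-fold and 0.5% of 2-fold changes over 4 mice (6277 genes), and 78.5% and 10% in the CCl4 mice alone (8633 genes). The simulation gave every gene and sum the same spread, a negative binomial with size 20, also for the sums of few cells. How far the real sums vary from this was not tested, so these shares are not the power of the fit on these data. The mice are the replicates, and p-values rest on 2 per group. Promoter sequences are those of RefSeq (GRCm38.p6). Some results are not reported here.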

Additional observations from a re-analysis of the deposited data

Results flagged for a closer look

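For 17 genes described or named by the rule, the high to low log2 difference itself differed between CCl4 and corn oil mice by edgeR's interaction test. The corn oil side rests on 4 cells of 1 mouse and 1 cell of the other, and groups of 2 mice are too small for a test of outlying samples. All values are CCl4 minus corn oil. Immune genes differed by 12.63 (Lyz2), 12.47 (H2-Aa), 12.09 (Cd74), 12.02 (H2-Ab1), 11.49 (H2-Eb1), 11.46 (Ctss), 10.88 (C1qc) and 10.72 (C1qb). Thy1 differed by 10.82, Inhba by 10.57 and the urinary protein gene Mup3 by 10.14. These sizes depend on the counts that the fit adds to zeros, since for example Lyz2, H2-Ab1, C1qb, Inhba and Thy1 had 0 UMIs in the 5 corn oil high cells. Hgf differed by 3.44, with 0 and 343 CPM in corn oil high cells against 403 and 664 CPM in corn oil low cells.

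In the opposite direction the difference was -6.25 for Eln, -5.85 for Igfbp5, -5.32 for Mgp, -4.80 for Notch3 and -3.40 for Adamtsl1. Eln was at 5662 CPM and Mgp at 1008 CPM in the high cells of corn oil 1, against 35.7 and 56.1 CPM in its low cells. Igfbp5 was at 659 CPM in the high cells of corn oil 1 and had 0 UMIs in its low cells.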

How the results depend on the processing

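Without CCl4 1 or CCl4 2 the 302 genes called between high and low cells were 20 or 26, and over all mice left out in turn 20 to 430. The count was 156 with DESeq2, 494 without a filter on low counts, 70 at middle depths, 200 without the highest doublet scores and 48 without cells holding other RNA. In the CCl4 mice alone it was 958, there 194 at middle depths, 804 with a limit at 0.1% of UMIs and 165 without cells holding other RNA. The settings on the CCl4 mice alone and on RNA of other types were chosen after seeing the data. The 24 genes of low cells became 98 with DESeq2, 457 without a filter, 130 with the limit at 0.1% of UMIs, 4 at middle depths and 111 without cells holding other RNA. They ranged from 0 to 600 over mice left out, with 0 by edgeR without CCl4 2 (388 at an unadjusted p under 0.05). DESeq2 was not run with mice left out. The 76 interaction genes became 154 with the limit at 0.1% of UMIs, 5 at middle depths and 25 without cells holding other RNA, and ranged from 0 to 301 over mice left out, with 0 by edgeR without CCl4 1 or CCl4 2 (63 and 69 at an unadjusted p under 0.05). The cause of these changes was not tested. The difference in the share of stellate cells that are high, 42.6 points, was 35.5 with the limit at 0.1% of UMIs, 33.3 with a limit of 16 UMIs and 37.9 to 47.3 over mice left out. Of 55 named genes called over 4 mice, 51 were also called in the same direction in the CCl4 mice alone, and 28 there without cells holding other RNA. Notch3 turned to -0.11 in the CCl4 mice alone, -0.37 at their middle depths, -0.0375 with the limit at 0.1% of UMIs and -0.26 without cells holding other RNA. Adamtsl1 turned to -0.0444 at middle depths of the CCl4 mice, and Aqp1 to 0.0177 without cells holding other RNA.

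Replicate numbers of the labels did not pair the mice (correlation of deviations -0.0434 over 6921 genes), and with the replicate block 127 genes were called in low cells. Without the mouse as a block (no replicate block) 210 genes were called between high and low cells. CCl4 against corn oil within high cells, with its alternatives and its block, was not run, since the corn oil mice held 4 and 1 cells, under the minimum of 20 set here.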
